A study of Mus musculus with 45 samples.

Results

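Hippocampal transcripts of heterozygous Shank3-mutant mice (Shank3-HT) were compared with those of wild-type (WT) mice, 5 mice of each genotype, over 16571 genes. These are the genes of the 18135 in the deposited table whose mean over the 15 hippocampal samples was at least 10 normalized counts, and the 10 samples compared are part of 45 from 3 genotypes and 3 brain regions (cortex, hippocampus and striatum). All mice were males of the C57BL/6J strain aged 13 weeks. The Shank3-HT mice carry 1 allele that lacks exons 14 to 16 of Shank3, the homozygous mutants (Shank3-HM, called knock-out in the labels) carry 2 such alleles, and WT mice carry none. The deletion is constitutive, so every cell of the mutant carries it, and the labels do not say whether the hippocampus, cortex and striatum of one replicate number came from the same mouse. Poly(A) RNA of whole tissue was sequenced as stranded libraries, so fewer cells of a type and less RNA per cell cannot be told apart in any of the values below.

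Shank3 is a scaffold of the excitatory postsynapse that links glutamate receptor complexes to the actin cytoskeleton through its ankyrin, SH3, PDZ, proline-rich and SAM regions. Loss of one copy in people is a cause of Phelan-McDermid syndrome and is linked to autism. The hippocampus, with its dentate granule cells and CA pyramidal neurons, expresses the gene strongly.

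Shank3 (ENSMUSG00000022623) lies on the plus strand of chromosome 15 at 89499623 to 89560261 in the GRCm38 build. The sequences of exons 14 to 16 are shown because the loss of exons with these numbers defines the mutant allele. They were read from the transcript with the most exons annotated for the gene, which has 22 exons and 7365 bases in GENCODE M21. The sources do not name the transcript by which the deleted exons were numbered, so that the 3 exons shown are those deleted is assumed from their numbers. Exon 14 spans 89531626 to 89531708 (83 bases), exon 15 spans 89532095 to 89532219 (125 bases), and exon 16 spans 89532329 to 89532461 (133 bases). All 3 are wholly coding and hold part of the code of the PDZ domain, the fold that binds the ends of partner proteins. Capitals mark the exon and small letters the 10 transcript bases on either side.
Shank3 exon 14: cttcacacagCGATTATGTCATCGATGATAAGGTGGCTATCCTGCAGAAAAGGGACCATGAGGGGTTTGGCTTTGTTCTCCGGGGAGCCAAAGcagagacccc
Shank3 exon 15: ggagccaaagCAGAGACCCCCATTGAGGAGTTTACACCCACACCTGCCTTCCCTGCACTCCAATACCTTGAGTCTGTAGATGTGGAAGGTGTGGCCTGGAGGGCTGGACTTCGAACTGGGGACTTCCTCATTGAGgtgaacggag
Shank3 exon 16: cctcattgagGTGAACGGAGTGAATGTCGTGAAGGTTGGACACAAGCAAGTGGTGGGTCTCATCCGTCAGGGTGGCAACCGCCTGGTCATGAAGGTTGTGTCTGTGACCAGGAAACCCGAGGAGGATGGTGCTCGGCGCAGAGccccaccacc
Together they hold 341 bases, which is 4.63% of the transcript and leaves a remainder of 2 when divided by 3. By the numbering of this transcript, joining exon 13 to exon 17 would therefore shift the reading frame. The measured value is that of the whole gene, so reads from the other exons of a mutant allele are counted too.

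The libraries were checked before the comparison. The tissue showed its defining markers: in WT mice Prox1, the transcription factor of dentate granule cells, averaged 3511 ± 474 normalized counts (SD, n = 5) in the hippocampus against 345 ± 30.2 in the cortex and 504 ± 62.7 in the striatum, and C1ql2, a secreted protein of mossy fibre synapses, averaged 1682 ± 255 against 9.86 ± 4.95 and 8.58 ± 2.91. The CA3 kainate receptor Grik4 and the CA2 adhesion gene Amigo2 were also highest in the hippocampus, whereas Wfs1, used for CA1, was higher in the striatum (4298 ± 625) than in the hippocampus (2651 ± 196). One library stood apart. WT replicate 1 had a mean Spearman correlation of 0.987 with the other hippocampal samples, where the other 14 had 0.990 to 0.994, and WT replicate 4 had the lowest of those. In WT replicate 1 the fifth of genes with the shortest transcripts (up to 1890 bases) lay 0.18 above the gene means of the 15 mice on the log2 scale, and the fifth with the longest (5164 bases or more) lay 0.20 below. From each of these deviations the mean deviation of the same mouse over all genes was subtracted. The other 9 mice of the comparison lay between -0.05 and 0.01 for the shortest transcripts and between -0.02 and 0.07 for the longest. By the GC content of the same transcripts, WT replicate 1 ran from -0.17 in the fifth of genes with the lowest GC content to 0.16 in the fifth with the highest. The other 9 mice stayed between -0.05 and 0.05 in both of these gene groups, among them WT replicate 4, which ran from -0.05 to 0.04, and Shank3-HT replicate 1, which ran from -0.03 to 0.02. Values without WT replicate 1, and without WT replicates 1 and 4, are also given below.

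**Figure D1:**
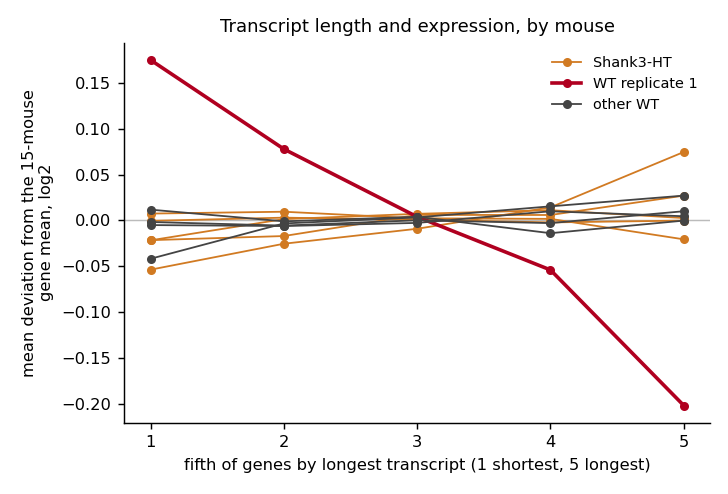
Mean deviation of each of the 10 mice (log2, vertical axis) from the gene means of the 15 hippocampal samples, for 5 equal groups of genes ordered by their longest transcript (horizontal axis). The mean deviation of the same mouse over all genes was subtracted. WT replicate 1 falls from 0.18 to -0.20 across the groups, and the other 9 mice stay between -0.05 and 0.07.

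Shank3 itself fell. The 5 WT mice had 7799, 7748, 8468, 7566 and 8139 normalized counts, and the 5 Shank3-HT mice had 5611, 6103, 5894, 5714 and 6108. Every Shank3-HT mouse lay below every WT mouse, with 1458 normalized counts between the highest mutant and the lowest WT value. The means were 7944 ± 359 and 5886 ± 225 (SD, n = 5), so the Shank3-HT level was 74.1% of WT. The log2 fold change was -0.43 with a standard error of 0.043 (limma, Benjamini-Hochberg adjusted p = 2.19e-04 over 16571 genes). A two-sided exact permutation test of the mean log2 values over the 10 mice gave p = 0.00794, the smallest value that 5 against 5 mice allow. Without WT replicate 1 it stayed past the threshold in limma, and in every fit that left out 1 mouse the log2 fold change was between -0.45 and -0.41.

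The 5 Shank3-HM mice, with 3755, 4020, 3678, 3866 and 3684 normalized counts, averaged 3801 ± 144, which is 47.8% of WT. Their values do not overlap with those of Shank3-HT mice, the nearest pair being 1591 apart. The Shank3-HT mean of 5886 lay 13.5 above the midpoint of the WT and Shank3-HM means, where the standard error of that difference was 133. In the cortex the Shank3-HT mean was 76.7% of WT (log2 fold change -0.38 with a standard error of 0.066), and in the striatum 70.8% (-0.50 with a standard error of 0.074). The change in the hippocampus differed from that in the cortex by -0.05 with a standard error of 0.090 and from that in the striatum by 0.07 with a standard error of 0.090 on the log2 scale, neither of which passed limma's test of the difference (adjusted p = 1 and 0.962).

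**Figure D2:**
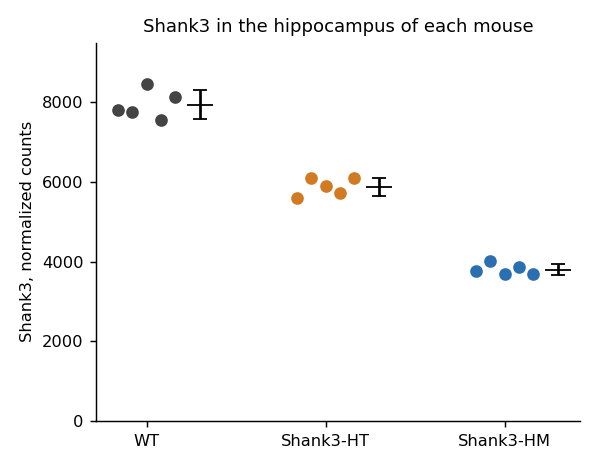
Normalized counts of Shank3 (vertical axis) in the hippocampus of each mouse of the 3 genotypes, one point per mouse, with the mean and SD of 5 mice beside the points. WT mice lie at 7566 to 8468, Shank3-HT mice at 5611 to 6108 and Shank3-HM mice at 3678 to 4020, with no overlap.

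Shank3 was the only one of the 16571 genes past an adjusted p of 0.05 in limma (0.00603% of the genes tested). At an unadjusted p under 0.05 there were 871 genes (5.26%), 537 higher (3.24%) and 334 lower (2.02%) in Shank3-HT mice. All 5 mutants lay above all 5 WT mice for 74 genes (0.447%) and below them for 58 genes (0.35%). Among the 26 tested genes within 500 kb of Shank3, the log2 fold changes ranged from -0.31 to 0.37, with 1 higher and 1 lower at an unadjusted p under 0.05 and a smallest adjusted p of 0.926 (limma).

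The 12 genes with the smallest p among those with all Shank3-HT mice above all WT mice did not pass the adjusted threshold, with adjusted p of 0.45 to 0.828 (limma). Among them, Ell2, Etl4, Pou3f2, Flrt1, Rap1gap2 and Ankrd13c are listed by the study as differentially expressed on these same samples, by DESeq2 fitted to its counts. They include regulators of transcription and splicing. Ell2, a subunit of the super elongation complex that releases paused RNA polymerase, had 642, 685, 674, 651 and 662 normalized counts in Shank3-HT mice and 445, 551, 511, 453 and 531 in WT mice. The mutant mice formed a narrow group, with an SD of 17.3 against 47.2 in WT. The difference was 0.42 on the log2 scale with a standard error of 0.081 (limma, adjusted p = 0.450). Pou3f2, a POU-domain factor of cortical neuron development, had 395.5, 361, 357, 404 and 433 against 296, 322, 291, 323 and 291, a difference of 0.35 with a standard error of 0.073 (limma, adjusted p = 0.450). Satb1, a chromatin organizer of interneurons, differed by 0.28 and Srrm4, a splicing factor of neuronal microexons, by 0.20.

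Among the other genes of this group are an adhesion gene and a regulator of a small GTPase. Flrt1, a leucine-rich adhesion protein of synapses, had 444, 481, 435, 438 and 410 normalized counts in Shank3-HT mice against 285, 319, 298, 391 and 370 in WT mice, 0.42 higher with a standard error of 0.087 (limma, adjusted p = 0.450). Rap1gap2, which switches off the GTPase Rap1, had 5291, 5662, 5893, 5300 and 5263 against 4298, 4590, 4782, 4595 and 5028, a difference of 0.24 with a standard error of 0.049 (limma, adjusted p = 0.450). The lowest mutant and the highest WT mouse were close for this gene. Etl4 (0.34), Ankrd13c, whose product acts on receptor trafficking (0.21), Oxr1, an oxidation resistance gene (0.22), Fam135a (0.23), Hps4, a subunit of a complex of lysosome-related organelles (0.54), and Sec14l3, at a mean of only 14.2 normalized counts in WT mice (1.34), make up the rest. Without WT replicates 1 and 4 the difference in Hps4 was 0.74 with an adjusted p of 0.083 (limma), the smallest among the 12.

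**Figure D3:**
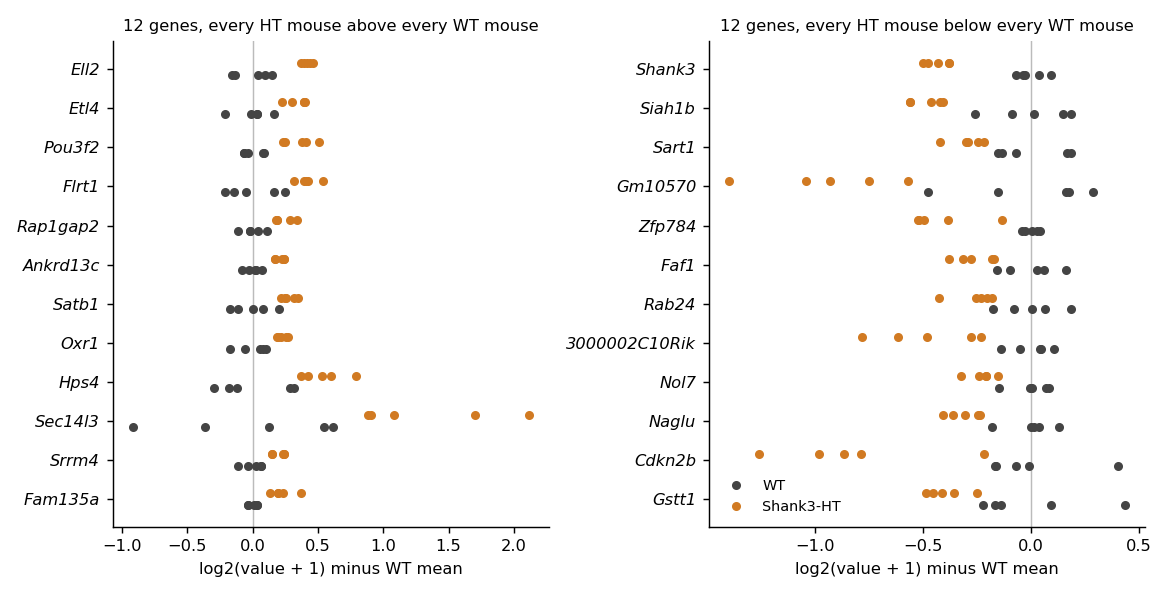
Values of each WT and Shank3-HT mouse as log2(normalized count + 1) minus the WT mean (horizontal axis), for the 12 genes with the smallest p among those with all mutant mice above, and the 12 with all below, all WT mice. Each point is 1 mouse, and the separation of the points is part of how the genes were chosen.

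Of the 12 genes with all Shank3-HT mice below all WT mice, Shank3 passed the threshold and the other 11 had adjusted p of up to 0.874 (limma). Siah1b, an E3 ubiquitin ligase, had 77.5, 72.5, 72.4, 80.6 and 79.8 normalized counts in mutants against 119, 122, 108, 101 and 89.3 in WT mice, a difference of -0.48 with a standard error of 0.108 (limma, adjusted p = 0.671). Sart1, a component of the spliceosomal tri-snRNP, had 1392, 1447, 1401, 1476 and 1281 against 1927, 1564, 1949, 1634 and 1544, a difference of -0.29 with a standard error of 0.071 (limma, adjusted p = 0.761). The others were the ubiquitin-pathway gene Faf1 (-0.26), the autophagy-linked GTPase Rab24 (-0.26), the lysosomal enzyme Naglu (-0.31), the cell cycle inhibitor Cdkn2b (-0.82), the glutathione transferase Gstt1 (-0.39), the zinc finger gene Zfp784 (-0.41), Nol7 (-0.23), 3000002C10Rik (-0.48) and Gm10570 (-0.94). Cdkn2b and Gm10570 had fewer than 34 normalized counts in every WT mouse.

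Without WT replicate 1 the 12 genes that lay above had log2 differences of 0.17 to 1.11 with a median of 0.26, against 0.20 to 1.34 with a median of 0.31 in all mice. Shank3-HM mice were compared with the same 5 WT mice by which these 12 genes were chosen, so that differences above 0 are no separate evidence. These differences were 0.08 to 1.34, and none was past the adjusted threshold (smallest adjusted p = 0.737, limma). In the cortex the 11 of them that were tested had a median difference of 0.02, and in the striatum the 12 had one of 0.0035. The 12 genes that lay below, Shank3 among them, had a median of -0.40 in all mice and -0.39 without WT replicate 1. In Shank3-HM mice, against the WT mice by which they were chosen, it was -0.20. For the Shank3-HT change in the cortex the 12 had a median of -0.01, and in the striatum the 11 that were tested had one of -0.10.

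Lists of genes were then described by their counts and medians beside those of all genes, whose median log2 fold change was 0.0056, with 52.0% of genes above 0 and 48.0% below. Shank3 itself was kept out of every list, so the counts below for scaffold and autism risk genes do not include it. At an unadjusted p under 0.05, 3.24% of all genes were higher and 2.02% lower. Several synaptic lists lay above 0 in most of their members, as did the astrocyte markers, with 37 of 50 above 0 (74.0%, median 0.04). Of 45 genes of presynaptic release, 37 were above 0 with a median of 0.05, and 3 (beside 3.24% of all genes) were higher and 0 lower at an unadjusted p under 0.05. These 3 were Cplx3, a complexin (0.75), Unc13c, a vesicle priming factor (0.56), and Rims3, an active zone protein (0.24). Of 46 synaptic adhesion genes 34 were above 0 (73.9%, median 0.04), with 5 higher and 0 lower, among them Flrt1 and Cadm1. Of 31 postsynaptic scaffold genes other than Shank3, 23 were above 0 (74.2%, median 0.05) and none was past that level. The relatives Shank1 and Shank2 differed by 0.15 and 0.14, with adjusted p of 0.926 for both (limma), and by 0.06 and 0.07 without WT replicate 1. All 7 metabotropic glutamate receptor genes tested were above 0 (median 0.13), with Grm4 alone at an unadjusted p under 0.05 (0.20). Of 20 AMPA receptor genes 11 were above 0 (median 0.0052), with Gria4 (0.22) and the auxiliary subunit genes Gsg1l (0.26) and Cacng7 (0.12) higher and Cacng8, another auxiliary subunit gene, lower (-0.19). Of 129 autism risk genes other than Shank3, 103 were above 0, with a median of 0.06, and 10 were higher and 0 lower, beside 3.24% and 2.02% of all genes.

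These medians moved with WT replicate 1. Without it, the median of the autism risk genes was 0.02 with 87 of 129 above 0 (51.8% of all genes were above 0 in that fit), and 9 were higher and 1 lower. The median was then 0.03 for the presynaptic genes, 0.03 for the adhesion genes, 0.01 for the scaffold genes, 0.03 for the metabotropic receptors and -0.0039 for the AMPA receptor genes, while 5 presynaptic genes were higher and 0 lower, beside 3.19% and 2.4% of all genes. Gsg1l was then no longer at an unadjusted p under 0.05 (0.0933). Without WT replicates 1 and 4 the scaffold median was -0.02, the metabotropic receptor median -0.02, and 69 of 129 autism risk genes were above 0 with a median of 0.0096, beside 50.6% of all genes. Of the autism risk genes 8 were higher and 3 lower in that fit, beside 3.13% and 2.41% of all genes, and the adhesion median was -0.0013 with 23 of 46 above 0. In the same fit 3 adhesion genes were higher and 3 lower, without Cadm1 (limma, unadjusted p = 0.0728), 3 metabotropic receptor genes were higher, and 1 AMPA receptor gene was higher and 2 lower. The presynaptic median was 0.01 in that fit, with 23 of 45 genes above 0, and 5 presynaptic genes were higher and 0 lower. Leaving out WT replicate 4 alone gave 3 higher and 1 lower adhesion genes, 1 higher scaffold gene, 2 higher metabotropic receptor genes, and 2 higher and 2 lower AMPA receptor genes, beside 3.71% of all genes higher and 2.43% lower. The score of the autism risk list (its average log2 level less the average over all genes, set to 0 at the middle WT mouse) was -0.13, 0.06, 0.03, -0.06 and 0 in WT mice 1 to 5 and -0.01, 0.02, 0.06, 0.01 and 0.14 in Shank3-HT mice 1 to 5. WT replicates 1 and 4 were the lowest 2 of the 10 mice, and the other 8 mice of both genotypes overlapped.

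The genes of translation and respiration lay below 0. Of 81 cytosolic ribosome genes 78 were below 0 (96.3%, beside 48.0% of all genes), with a median of -0.09, and 6 were lower (beside 2.02% of all genes) and 0 higher at an unadjusted p under 0.05. Rpl10 was the largest of the 4 with the smallest p, with 431, 639, 560, 603 and 636 normalized counts in Shank3-HT mice against 564, 568, 1267, 1573 and 978 in WT mice, a difference of -0.68 with a standard error of 0.260. The other 3 were Rps28 (-0.24), Rpl30 (-0.17) and Rpl13 (-0.23). Of 77 respiratory chain and ATP synthase genes 73 were below 0 (median -0.09), with 2 lower, Uqcrfs1 (-0.14) and Ndufa1 (-0.19). The 79 mitochondrial ribosome genes had a median of -0.05, with 4 lower and 0 higher. The 107 spliceosome genes had one of -0.03, with 6 lower and 1 higher, beside 2.02% and 3.24% of all genes. Ribosomal protein genes have many near-identical processed copies, so their single values are uncertain.

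These medians rested on 1 mouse. Without WT replicate 1 the medians were -0.0051 for the cytosolic ribosome, with 44 of 81 genes below 0 and 1 lower at an unadjusted p under 0.05, -0.0095 for the respiratory chain, 0.0076 for the mitochondrial ribosome and -0.0036 for the spliceosome. The 1 ribosome gene was Rpl10 (-0.85), and no respiratory gene was past that level in limma, with -0.09 for Uqcrfs1 (unadjusted p = 0.110) and -0.14 for Ndufa1 (0.128). With WT replicate 4 alone left out, Rpl10 differed by -0.48 and was not past that level (limma, unadjusted p = 0.0645). Without WT replicate 1 the share of all genes below 0 was 48.2%. In that fit 0 mitochondrial ribosome genes were at an unadjusted p under 0.05. Of the spliceosome genes 4 were lower and 1 higher, beside 2.4% and 3.19% of all genes. Without WT replicates 1 and 4, 6 spliceosome genes were lower and 2 higher, beside 2.41% and 3.13% of all genes. The ribosome score was 0.44 in WT replicate 1, where WT replicates 2 to 5 had -0.19, 0.07, 0 and -0.01 and Shank3-HT mice 1 to 5 had 0.02, -0.03, -0.07, 0.05 and -0.12. The respiratory chain score was 0.43 in WT replicate 1 and between -0.12 and 0.06 in the other 9 mice. Over all genes, the median difference ran from -0.05 in the fifth with the shortest transcripts to 0.06 in the fifth with the longest, and from -0.0038 to 0.0067 without WT replicate 1. From the fifth with the lowest GC content to that with the highest it ran from 0.03 to -0.01, without WT replicate 1 from -0.0034 to 0.02, and without WT replicates 1 and 4, in the opposite direction to all mice, from -0.02 to 0.03. The part of transcript length and GC content in the list medians was not tested.

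**Figure D4:**
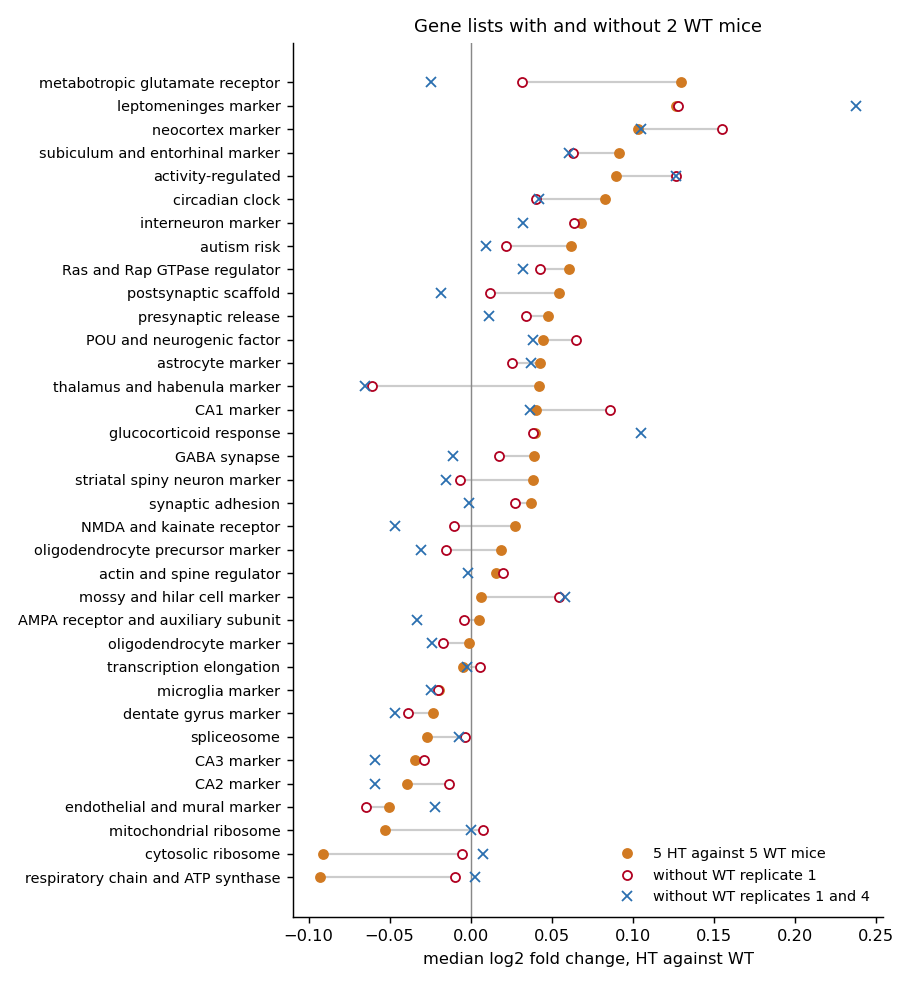
Median log2 fold change of Shank3-HT against WT mice (horizontal axis) for 35 gene lists (vertical axis), for all 10 mice (filled), without WT replicate 1 (open circles) and without WT replicates 1 and 4 (crosses). The ribosome and respiratory lists move from about -0.09 to near 0 without WT replicate 1, and the neocortex and activity-regulated lists stay above 0.

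Activity-regulated genes, which neurons induce within minutes to hours of firing, were also mostly above 0. Of 49 genes 34 were above 0, with a median of 0.09, and 5 were higher (beside 3.24% of all genes) and 0 lower at an unadjusted p under 0.05. Fosb, an AP-1 transcription factor, had 369, 338, 255, 198 and 233 normalized counts in Shank3-HT mice against 233, 120, 175, 166 and 182 in WT mice, a difference of 0.66 with a standard error of 0.202 (limma, adjusted p = 0.926). The groups overlapped through Shank3-HT replicate 4, which lay below WT replicate 1. Nr4a2, a nuclear receptor, differed by 0.34 (unadjusted p = 0.00179), Pcsk1, a neuropeptide-processing protease, by 0.35 (0.00243) and Fosl2, another AP-1 factor, by 0.28 (0.0168).

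Without WT replicate 1, 14 of the 49 were higher and 2 lower at an unadjusted p under 0.05, beside 3.19% and 2.4% of all genes, and the median was 0.13. Fos (0.83), Arc (0.52), Egr2 (1.08), Junb (0.41) and Nr4a1 (0.46), immediate early genes, were among the 14, and none of the 49 passed the adjusted threshold. Without WT replicates 1 and 4, 11 were higher and 1 lower, beside 3.13% and 2.41% of all genes. Without WT replicate 4 alone, 4 were higher and 1 lower, beside 3.71% and 2.43% of all genes, and the median was 0.08. Over fits leaving out 1 mouse the median ran from 0.05 to 0.13. The scores of the list were 0.29, 0, -0.02, -0.06 and 0.10 in WT mice 1 to 5 and 0.39, 0.21, 0.18, 0.05 and 0.11 in Shank3-HT mice 1 to 5, so that WT replicate 1 was higher than 4 of the 5 mutants. Shank3-HT replicate 1 was the highest of these mice.

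Of 21 circadian clock genes, 16 were above 0 with a median of 0.08 and 4, beside 3.24% of all genes, were higher: Rorb, a nuclear receptor also listed as a neocortex marker (0.29), Npas2, a partner of Bmal1 (0.25), Hlf, an output transcription factor (0.20), and Per1, a repressor of the clock (0.19). The median was 0.04 without WT replicate 1, and 6 were higher, beside 3.19% of all genes.

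**Figure D5:**
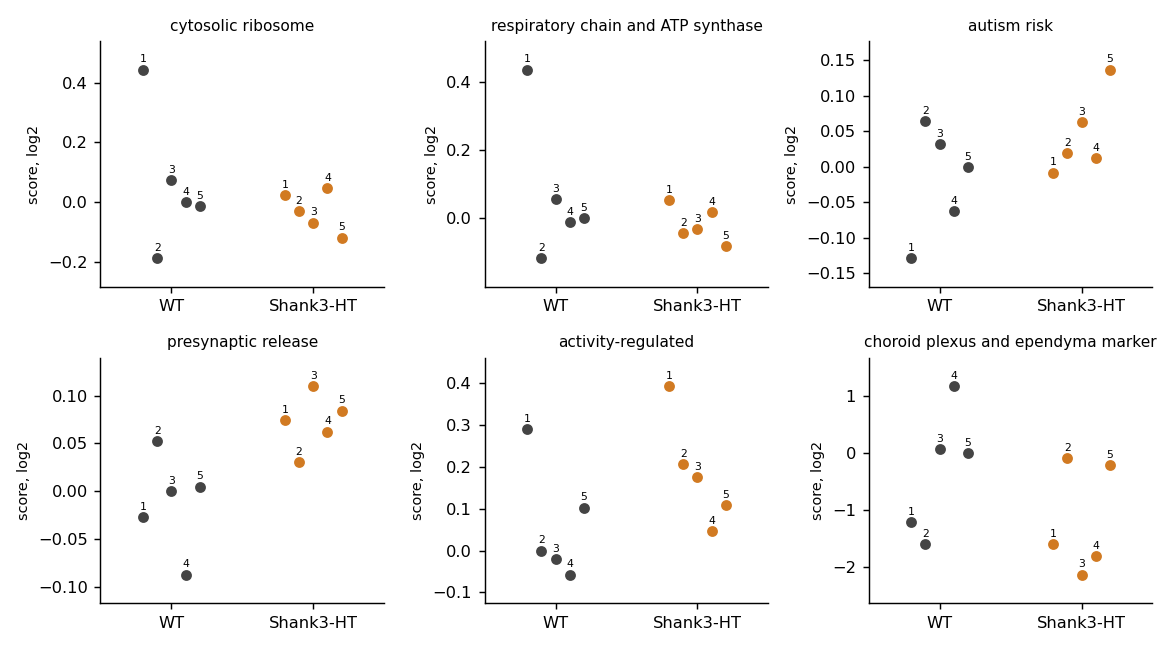
Scores of 6 gene lists (vertical axes, log2, mean of the list minus the mean of all genes, set to 0 at the middle WT mouse) in each WT and Shank3-HT mouse, numbered by replicate. WT replicate 1 is the highest mouse for the cytosolic ribosome (0.44) and respiratory chain (0.43) and the lowest for autism risk (-0.13), and WT replicate 4 is the highest for choroid plexus and ependyma (1.17).

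Markers of hippocampal subfields had small medians in either direction: 0.04 for 17 CA1 genes, -0.04 for 12 CA2 genes, -0.03 for 20 CA3 genes and -0.02 for 25 dentate genes. At an unadjusted p under 0.05, 2 CA1 genes were higher, and 2 CA2 genes and 1 dentate gene were lower. This stands beside 3.24% of all genes higher and 2.02% lower. Prox1 differed by 0.05 with a standard error of 0.098, with a direction that changed when WT replicate 1 was left out (-0.02). With WT replicate 1 left out the medians were 0.09 for CA1, -0.01 for CA2, -0.03 for CA3 and -0.04 for dentate genes, and without WT replicate 4 they were 0.03, -0.09, -0.0057 and -0.02. In the CA2 list, where 5 of 12 genes were above 0, the kinase gene Map3k15 differed by -0.49 (unadjusted p = 0.00376, and 0.00107 without WT replicate 1). Amigo2 differed by -0.20 (unadjusted p = 0.0326), which became -0.15 (0.0917) without WT replicate 1. Among markers of neighbouring tissue, 15 of 19 neocortex genes were above 0 (median 0.10), and 5 (beside 3.24% of all genes) were higher and 0 lower, Rorb, Tbr1, Tshz2, Cux2 and Nr4a2. The neocortex median was 0.155 without WT replicate 1, and without WT replicate 4 it was 0.06. The summed level of that list was 20329 to 22090 normalized counts in WT mice (median 21502) and 21395 to 24398 in Shank3-HT mice (median 23606). Of 17 thalamus and habenula genes 12 were above 0 (median 0.04), and without WT replicate 1 there were 7 (median -0.06). In that list Necab1, a neuronal calcium-binding protein that is also listed for mossy cells, differed by 0.53, the tachykinin gene Tac2 by -0.52 and the synaptic adhesion gene Slitrk6 by -0.64, all at an unadjusted p under 0.05. These were the 1 higher and 2 lower genes of the list, beside 3.24% and 2.02% of all genes. Without WT replicate 1 there were 2 higher and 3 lower, beside 3.19% and 2.4% of all genes. Of 12 mossy and hilar cell genes 6 were above 0 (median 0.0066), and the median was 0.05 without WT replicate 1. The part of neighbouring tissue in these values was not tested.

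Glial markers had medians of 0.04 for the 50 astrocyte genes, -0.0012 for 49 oligodendrocyte genes and -0.02 for 46 microglia genes. At an unadjusted p under 0.05, 0 astrocyte genes were higher and 1 lower, and 0 microglia genes were past it, beside 3.24% and 2.02% of all genes. With WT replicate 1 left out the medians were 0.03, -0.02 and -0.02, and 3 microglia genes were lower, beside 2.4% of all genes. Without WT replicates 1 and 4, 3 astrocyte genes were higher and 0 lower. In that fit 4 microglia genes were lower and 0 higher, beside 2.41% and 3.13% of all genes. Choroid plexus and ependyma genes stood apart: all 30 were below 0 with a median of -0.825, and 1 was lower at an unadjusted p under 0.05 (Folr1, a folate receptor, -1.93), beside 2.02% of all genes. The median was -1.11 without WT replicate 1, and 8 of the 30 were lower, beside 2.4% of all genes, Folr1 (-2.26) and Clic6, an intracellular channel gene (-1.91), among them. Ttr, the transthyretin gene of choroid epithelium, had 987, 30349, 591, 1181 and 28261 normalized counts in Shank3-HT mice and 5719, 2097, 31385, 113040 and 32301 in WT mice. High and low mice occurred in both genotypes, and the difference of -2.24 had a standard error of 1.18 (limma, unadjusted p = 0.0747). The summed level of the list ran from 11696 to 196310 in WT mice (median 62949) and from 8469 to 59717 in Shank3-HT mice (median 9886), and without WT replicate 4 its median difference was -0.36, with 0 genes at an unadjusted p under 0.05 in either direction. Without WT replicates 1 and 4 the median was -0.67, and 0 genes were past that level in limma. In Shank3-HM mice the median of the list was 0.12.

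The Shank3-HT change was also compared between regions within one limma fit of all 45 samples. No gene passed an adjusted p of 0.05 for a difference between hippocampus and cortex (16651 genes tested, 0.0% called, 545 or 3.27% at an unadjusted p under 0.05) or between hippocampus and striatum (16672 genes, 0.0% called, 934 or 5.6% at an unadjusted p under 0.05). The result for the striatum changed with the fit: 1 gene passed with a replicate block across regions, and 0 to 2 passed with 1 sample left out. Nearest for the striatum was Npas2, 0.25 higher in the hippocampus and 0.38 lower in the striatum of Shank3-HT mice, a difference between regions of 0.63 with a standard error of 0.123 (adjusted p = 0.120, limma). Next came Necab1, 0.53 higher against 0.11 lower (difference 0.64, adjusted p = 0.251), and Ostf1, 0.20 lower against 0.41 higher (difference -0.61, adjusted p = 0.251). For the cortex, the smallest p belonged to Sec14l3, which had too low a mean in the cortex to be tested there alone, to Gm44792 and to 4930522L14Rik, each with an adjusted p of 1 (limma).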

How the data were processed

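RNA of 45 samples was analysed, 5 for each of 3 genotypes in each of 3 regions. The deposited signal values are normalized counts: per the methods, the authors quantified reads with Salmon 1.1.0 with a GC bias correction, imported them with tximport and normalized them with DESeq2. The submitters' processing notes name GRCm38, DESeq2 1.26.0 and R 3.6.2, and the methods name later versions of the last 2. Whole reads could not be recovered, so depth is unknown and no count test was used. The normalized totals were 26118600 to 27380400 per hippocampal sample, and counting error was not computed. Columns coded KI were read as the knock-out mice.

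Values were taken as log2(value + 1), and genes averaging at least 10 in the 15 hippocampal samples were fitted in limma 3.58.1 (R 4.3.3) with an intensity trend and Benjamini-Hochberg adjustment at 0.05. Fold changes of low genes are understated on this scale. All 15 samples shared 1 estimate of spread. Named are Shank3, the 12 genes with the smallest p in each direction whose groups do not overlap, 6 genes that the study lists as differentially expressed on these samples by DESeq2 (all among the 12 that lay above, and not independent evidence), members with the smallest p in each of 37 lists, 8 defining markers and the 3 genes with the smallest p per difference between regions. Some genes that this rule names are not reported here. Others were named after their values were seen. The members and lists were chosen with earlier results of these data known. The lists were written from general knowledge, and a gene can be in several. Transcript length and GC content are those of the longest GENCODE M21 transcript. The fit was tested on simulated data.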

Additional observations from a re-analysis of the deposited data

Results flagged for a closer look

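Of 394 groups of 5 mice examined (the named genes and list scores in WT and Shank3-HT mice), 31 had 1 mouse far from the others, where chance flags about 1 in 20. Values are normalized counts unless called scores.

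WT replicate 1 was the distant mouse for Nf1 (2028), Pfn1 (2997), Mrpl27 (746), Shank1 (12090), Uqcrfs1 (2301), Cdk9 (2549) and Aff2 (96.9). Nf1, Shank1 and Aff2 were low in it and the others high. WT replicate 4 was the distant, highest mouse for the choroid plexus genes Folr1 (804), Lbp (926) and Ttr (113000), and for Igfbp2 (2482). WT replicate 2 was distant for Erg (186) and Slitrk6 (68.0), WT replicate 3 for Cdkn2b (24.9), Olig2 (551) and the neocortex marker score (-0.19), and WT replicate 5 for Ttn (569).

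Among Shank3-HT mice, replicate 1 was distant for Ssh3 (2119), Cox5a (1804) and the CA1 marker score (0.10). Replicate 2 was distant for Rpl13 (3266). Replicate 3 was distant for Cacng7 (4403), Tbr1 (1472), Grm2 (1632) and the microglia marker score (0.0304), and replicate 4 for Aff2 (258). Replicate 5 was distant for Grik4 (1782), Grm4 (269), Ndufa1 (542), the subiculum and entorhinal marker score (-0.14) and the endothelial and mural marker score (-0.28).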

How the results depend on the processing

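Shank3 passed the threshold under each alternative run: no intensity trend, quantile normalization, size factors within the region, no filter or a mean of at least 100, pseudocounts of 0.1 and 10, a replicate block, the HT and WT samples alone, and each mouse left out. It was the only gene past it except without a filter, where there were 2 genes, the other being Gm43302. The count at an unadjusted p under 0.05 ran from 693 to 1139 over fits leaving out 1 mouse, was 630 with a mean of at least 100, and 1028 with the replicate block. The replicate numbers did not pair the mice (correlations of -0.13 to 0.15 between the deviations of same-numbered HT and WT mice), and the block left the count past the adjusted threshold at 1.

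An alternative chosen after seeing the data left out WT replicates 1 and 4 together. The medians were then -0.0469 for NMDA and kainate receptors, -0.0243 for metabotropic glutamate receptors, 0.0425 for the circadian clock and -0.0305 for oligodendrocyte precursor markers. With 1 mouse left out the metabotropic median ran from 0.0316 to 0.184 and the circadian median from 0.0403 to 0.106. Without both mice the direction turned for Elavl2 (-0.0013), Hba-a1 (0.0840), Hbb-bs (0.132), Grm5 (-0.0680), Prox1 (-0.0757) and Drd1 (-0.178). With 1 mouse left out, Hbb-bs ran from -0.283 to 0.0243, Prox1 from -0.0164 to 0.131 and Drd1 from -0.0546 to 0.170. None of these genes passed the test. The cause was not tested.

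The count of genes whose change differed between hippocampus and striatum was 1 with the replicate block across regions and 0 to 2 with 1 sample left out: 2 without hippocampal HT replicate 5 or striatal HT replicate 4, and 1 without hippocampal WT replicate 4, hippocampal WT replicate 5 or striatal WT replicate 3. The count for the cortex was 0 throughout.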

Other observations

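Lists not described above were measured in the same comparison. Of 36 POU and neurogenic factor genes 29 were above 0 (median 0.04), with 3 higher at an unadjusted p under 0.05 (beside 3.24% of all genes), Pou3f2, Sox11 (0.23) and Tbr1 (0.16). The median was 0.06 without WT replicate 1, and 6 were higher (beside 3.19% of all genes). Of 35 Ras and Rap GTPase regulators 29 were above 0 (median 0.06), with 3 higher, Rap1gap2, Rasgef1b (0.24) and Nf1 (0.20), the tumour suppressor that switches off Ras. With WT replicate 1 left out, Nf1 differed by 0.09 (unadjusted p = 0.113) and Rasgef1b by 0.20 (0.0925), while 3 were still higher (beside 3.19% of all genes), Rap1gap2, Rap1gap (0.12) and Rasa3 (0.14), and 21 of 35 were above 0. Of 39 interneuron markers 30 were above 0 (median 0.07), with 3 higher, among them Satb1 and the potassium channel gene Kcnc2 (0.12). With WT replicate 4 left out 1 interneuron marker was higher and 1 lower, beside 3.71% and 2.43% of all genes, the median was 0.03, and Kcnc2 had an unadjusted p of 0.0594. Without WT replicates 1 and 4 the medians were 0.03 for interneuron markers and 0.03 for Ras and Rap regulators.

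Of 24 GABA synapse genes 20 were above 0 (median 0.04) and none was at an unadjusted p under 0.05. Without WT replicate 1 the median was 0.02, with 1 higher and 0 lower, beside 3.19% and 2.4% of all genes. Without WT replicates 1 and 4 it was -0.01, with 9 of 24 above 0. In that fit 0 were higher and 3 lower, beside 3.13% and 2.41% of all genes. The 33 glucocorticoid response genes had a median of 0.04. At an unadjusted p under 0.05, 1 was higher (Per1) and 2 were lower (Cebpd, -0.39, and Wipf3, -0.16), beside 3.24% and 2.02% of all genes. Actin and spine regulators had a median of 0.02, transcription elongation genes one of -0.0049 and leptomeninges markers one of 0.13. Medians were -0.05 for endothelial and mural markers, 0.09 for subiculum and entorhinal markers, 0.04 for striatal spiny neuron markers, 0.02 for oligodendrocyte precursor markers, 0.03 for NMDA and kainate receptors and -0.24 for 5 blood cell genes, beside 0.0056 for all genes. Without WT replicate 1 the medians of striatal (-0.0066), oligodendrocyte precursor (-0.02), NMDA and kainate receptor (-0.01) and transcription elongation genes (0.0055) changed sign, and those of subiculum and entorhinal markers (0.06) and blood cell genes (-0.06) lay nearer to 0. Without WT replicate 4 the median of endothelial and mural markers was 0.0087, that of leptomeninges markers 0.28, that of glucocorticoid response genes 0.07 and that of actin and spine regulators 0.00073.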
